A study of Mus musculus with 21 samples.

Results

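The genes described here are the secreted Wnt ligands of the mouse and the genes that receive, amplify or block their signal. They were taken by gene symbol: all Wnt, Frizzled (Fzd), R-spondin (Rspo), Sfrp and Dkk genes, together with Frzb, Wif1, Notum, Lrp5, Lrp6, Lgr4, Lgr5, Lgr6, Znrf3, Rnf43, Axin1, Axin2 and Lef1. The rule uses no measured value, and 54 of the 24594 genes in the count tables matched. RNA was sequenced in 2 series of libraries, with 7 groups of 3 libraries. In the stage series (9 libraries), neural crest cells were sorted by a red fluorescent reporter from Wnt1::Cre;ROSA-RFP embryos, which the study treats as wild-type, out of pharyngeal arch 2 (PA2) at E10.5 (embryonic day) and out of the forming pinna, the outer ear, at E12.5 and E14.5. In the genotype series (12 libraries), PA2 and pharyngeal arch 3 (PA3) were dissected at E10.5 from wild-type (WT) embryos and from homozygous HIRE1del/del embryos (written HIRE1del), which lack a distant regulatory region of the Hoxa gene cluster in all their cells. All mice were of a mixed C57Bl/6J;CD1 background. The Cre of the stage series is driven by a promoter of Wnt1, itself one of the genes described, in the progenitors of the crest, so the sorted cells are defined by a past activity of that promoter.

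Wnt proteins are lipid-modified signals that bind Frizzled receptors. With the coreceptors Lrp5 and Lrp6 they stabilize β-catenin, which switches on genes together with TCF/LEF factors, and other Wnts act through Frizzled and Ror receptors on cell shape and polarity without β-catenin. R-spondins, bound to Lgr receptors, remove the ubiquitin ligases Znrf3 and Rnf43 that take Frizzled off the cell surface, and so amplify the signal. Sfrp proteins, Frzb and Wif1 bind Wnts outside the cell, Dkk1 and Dkk2 bind Lrp5 and Lrp6, and Notum removes the lipid from Wnts. Axin1 is a scaffold of the complex that destroys β-catenin, and Axin2, which does the same, is induced by the pathway in many tissues. In the face and the ear, Wnt signals pass between the surface epithelium and the crest-derived mesenchyme and take part in outgrowth and patterning.

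Levels are given in CPM, counts scaled to a common library size of 1000000 counts, and fold changes are log2 ratios with their standard error (SE). A gene was called changed at an adjusted p below 0.05 in edgeR's quasi-likelihood test, adjusted over all genes of the table by the Benjamini-Hochberg method, and a gene had to reach 1 CPM in 2 libraries or more to be tested. Libraries of the genotype series held 25.8 to 32.2 M counts (M, 1000000 counts), those of E10.5 and E12.5 in the stage series 25.8 to 30.2 M and those of E14.5 47.5 to 49.1 M, so low levels are best measured at E14.5. Hoxa2, a gene of that cluster, lay at 73.1 to 84.4 CPM in PA2 WT and at 4.80 to 7.14 CPM in PA2 HIRE1del, and at 55.4 to 64.7 and 22.2 to 25.5 CPM in PA3. Every library carries the label of cranial neural crest. The 9 epithelial markers summed to only 11.4 to 15.1 CPM in the sorted cells of E10.5 and E12.5, where Krt5, Krt8, Krt14, Trp63 and Cldn6 had a mean under 1 CPM in both groups, but to 271 to 778 CPM in the genotype series. The 5 blood markers summed to at most 10.4 CPM in the sorted cells and to 1491 to 24019 CPM in the genotype series, for which no sort is stated. The genotype series is therefore called dissected arches here, and in such tissue fewer cells of a type and less RNA per cell cannot be told apart.

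In the plot of levels in every library, the 54 genes fell into a broadly detected set and a near-silent set. In the genotype series 44 of the 54 were tested and in the stage series 42. The 10 left untested in the arches were Wnt1, Wnt2, Wnt3a, Wnt8a, Wnt8b, Rspo4, Rnf43, Sfrp4, Sfrp5 and Dkk4, none of which exceeded 1.32 CPM in any of the 12 libraries. The 12 left untested in the sorted crest were Wnt1, Wnt3, Wnt3a, Wnt7a, Wnt8a, Wnt8b, Wnt9b, Wnt10b, Fzd6, Rspo4, Rnf43 and Dkk4, none above 1.18 CPM. Wnt8b and Dkk4 had no count in the 9 stage libraries, where a floor of 3 counts corresponds to 0.0631 to 0.111 CPM. Wnt1 had 2 counts in all the stage libraries together, so the gene whose promoter drives the Cre was near silent in the sorted cells at each of the 3 stages.

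**Figure D1:**
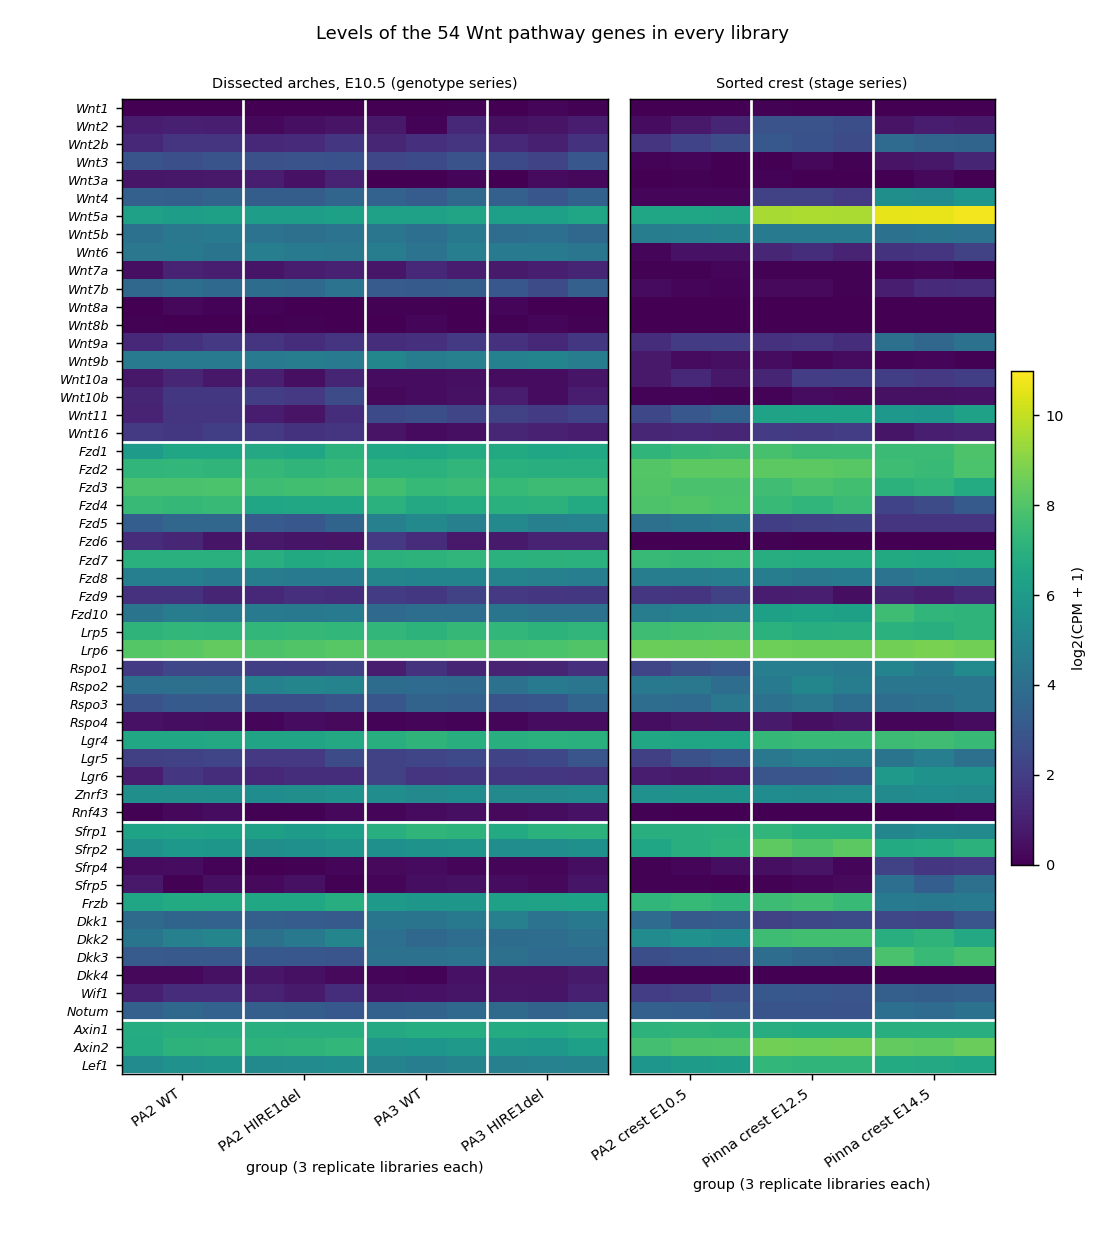
Levels of the 54 genes, as log2(CPM + 1), in each library of the dissected arches (left) and of the sorted crest (right). Rows are genes in blocks of ligands, receptors, potentiators and their brakes, antagonists and intracellular genes, and columns are libraries in groups of 3. Wnt5a is the brightest row of the E14.5 pinna, Fzd4 turns dark there, and Wnt6, Wnt7b and Wnt9b are dark in sorted crest.

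Promoter sequence was available for 34 of the 54 genes (41 start sites) in a RefSeq table of GRCm38.p6, and the 250 bases before each start were searched on both strands for the TCF/LEF motif CTTTGAT, the Pbx-Hox motif TGATNNAT and the Meis motif TGACAG. The motifs do not contain one another. TCF/LEF letters stood in 2 of the 41 member promoters (4.88%, against 3.21% of 32851 promoters of all genes), Pbx-Hox letters in 2 (4.88% against 7.68%) and Meis letters in 4 (9.76% against 15.9%). Windows are shown for Fzd4, the receptor that fell in PA2 without HIRE1, for Axin2, a response gene that differed between the arches, and for Wnt11, a ligand that rose in the pinna. Capitals mark a match, and each sequence runs 5′ to 3′ on the strand of the gene.
Fzd4, chr7:89404116-89404365, plus strand: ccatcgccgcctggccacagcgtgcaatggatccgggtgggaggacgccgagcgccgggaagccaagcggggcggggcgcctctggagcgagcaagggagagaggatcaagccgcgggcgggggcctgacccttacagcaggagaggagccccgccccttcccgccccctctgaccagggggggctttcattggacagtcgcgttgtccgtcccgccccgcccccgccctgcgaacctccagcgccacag
Axin2, chr11:108920099-108920348, plus strand: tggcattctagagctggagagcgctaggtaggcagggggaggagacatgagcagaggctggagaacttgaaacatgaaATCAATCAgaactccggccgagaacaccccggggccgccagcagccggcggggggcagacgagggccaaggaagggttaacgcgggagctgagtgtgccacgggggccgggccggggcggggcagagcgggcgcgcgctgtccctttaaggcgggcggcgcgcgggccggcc
Wnt11, chr7:98834862-98835111, plus strand: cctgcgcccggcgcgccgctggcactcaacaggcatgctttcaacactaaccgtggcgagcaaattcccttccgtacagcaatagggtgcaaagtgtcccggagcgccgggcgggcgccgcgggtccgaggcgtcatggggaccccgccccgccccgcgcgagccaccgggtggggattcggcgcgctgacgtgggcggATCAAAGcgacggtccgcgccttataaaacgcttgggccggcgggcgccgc
The Fzd4 window held none of the 3 motifs. Nor did the window of Frzb or that of a second Wnt11 start (chr7:98838595-98838844), which are not shown. In Axin2 the capitals are a Pbx-Hox match whose last base lies 165 bases before the start, and in Wnt11 a TCF/LEF match whose last base lies 45 bases before it. A match describes letters and not binding, and Rspo2 had no entry in the table.

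The stage series asks how gene expression of PA2 crest moves on as these cells build the pinna. Most of the transcriptome moved: between PA2 at E10.5 and the pinna at E12.5, 68.8% of all 13438 tested genes were called, and 30 of the 42 Wnt genes, 21 higher (background 35%) and 9 lower (background 33.7%). For changes of at least 2-fold the background was 21.6% (14.8% higher, 6.79% lower), and 18 of the 42 passed, 15 higher and 3 lower. From E12.5 to E14.5, 29 of the 42 were called (background 65.7%), 13 higher (background 32.6%) and 16 lower (background 33.1%). At 2-fold or more 16 were called (background 19.7%), 10 higher (background 12.2%) and 6 lower (background 7.53%). Over the whole interval from E10.5 to E14.5, 37 were called (background 82%), 22 higher (background 42%) and 15 lower (background 40%), and 24 at 2-fold or more (background 39.3%), 18 of them higher (background 23.1%) and 6 lower (background 16.2%). The 3 comparisons share their libraries and are not independent of one another. Some members, such as Wnt4, Wnt7b, Lgr6, Sfrp4 and Sfrp5, passed the filter only through the stages where they are high. Requiring 1 CPM in every library left them untested. Stage also goes together with tissue and, at E14.5, with papain in place of trypsin for dissociation, and these cannot be told apart.

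Among the ligands, 8 of 11 tested rose from E10.5 to E12.5 and none fell (background 35% and 33.7%), with a median log2 change of 1.48 against 0.0097 over all genes. Of the 8, Wnt2, Wnt4, Wnt6 and Wnt10a had a mean under 1 CPM at E10.5. They needed the pinna libraries to pass the filter, so their direction, and with it the count and the median, was partly set by the filter. With 1 CPM required in every library, they and Wnt16 were left untested. One ligand had an unadjusted p under 0.05 without passing, and DESeq2 and limma-voom called 8 ligands each. The ligand that came to dominate was Wnt5a (chromosome 14, 28504750 to 28527448, plus strand; GRCm38, GENCODE M21), which is best known for signalling without β-catenin and is needed for outgrowth of limbs and face. The libraries held 91.2, 89.8 and 84.3 CPM at E10.5, 747, 799.6 and 767 CPM at E12.5 and 1538, 1586 and 1785 CPM at E14.5. No value of one stage reached the next, and the log2 change was 3.12 (SE 0.072, edgeR adjusted p 1.82e-10) to E12.5 and a further 1.09 (SE 0.067, edgeR adjusted p 1.44e-07) to E14.5. Per length (RPKM, counts per kilobase of exon and per 1000000 counts), Wnt5a made up 43.9% ± 4.32 (SD, n = 3) of all Wnt ligand transcripts at E10.5, 72.98% ± 0.463 at E12.5 and 82.7% ± 0.977 at E14.5, while the sum over the 19 ligands went from 25.8 ± 1.55 to 135 ± 4.04 and 253 ± 21.8 RPKM. Its close relative Wnt5b went the other way in share, from 37.6% ± 1.11 to 6.396% ± 0.176 and 2.61% ± 0.233. In level Wnt5b fell by less than 2-fold, from 25.8 ± 1.52 CPM (SD, n = 3) at E10.5 to 17.4 ± 0.544 CPM at E14.5, and its change over the whole interval was -0.56 (SE 0.071, edgeR adjusted p 1.57e-05). An antisense gene shares 4.58% of the exon bases of Wnt5a. Genes on the other strand overlap 10 of the 54 genes in this way, among them Wnt7b (6.61%), Wnt11 (8.8%), Rspo3 (13.1%), Sfrp2 (16.1%), Lef1 (13.7%) and Axin2 (3.8%), and because the sources do not settle whether the libraries keep strand, reads of such pairs may not be separated.

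Wnt4, a ligand known from kidney and cartilage, gave the largest rise of the ligands. At E10.5 its libraries held 4, 4 and 3 counts (0.134, 0.137 and 0.09804 CPM), at E12.5 3.56, 3.43 and 2.65 CPM and at E14.5 43.8, 38.9 and 53.2 CPM. The 3 stages did not overlap, with a log2 change of 4.67 (SE 0.30) to E12.5 and 3.82 (SE 0.15) to E14.5, and edgeR adjusted p-values of 1.40e-07 and 5.95e-09. The E10.5 level rests on few counts, so the size of the first step is uncertain.

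Wnt11, which guides cell movement in the early embryo, rose from 4.28, 6.9999 and 9.54 CPM to 80.8, 82.2 and 81.8 CPM at E12.5, a log2 change of 3.55 (SE 0.22, edgeR adjusted p 1.22e-07). At E14.5 it held 57.8, 54.2 and 76.5 CPM. These values lay below those of E12.5, but the difference did not pass the test (log2 change -0.38, SE 0.19, edgeR adjusted p 0.095), though limma-voom, a fit of the libraries compared alone and a fit without E14.5 replicate 3 each called it. Wnt2 was high at E12.5 only: it measured 0.301, 0.686 and 1.18 CPM at E10.5, 5.98, 6.07 and 5.302 CPM at E12.5 and 0.507, 0.8199 and 0.723 CPM at E14.5, with a rise of 2.99 (SE 0.37, edgeR adjusted p 2.32e-05) and a fall of -3.07 (SE 0.35, edgeR adjusted p 1.78e-05). Wnt16 was likewise highest at E12.5 (2.71, 2.68 and 3.02 CPM, against 1.24, 1.44 and 1.27 CPM at E10.5 and 0.529, 0.904 and 1.01 CPM at E14.5), and of the 11 ligands it fell most from E10.5 to E14.5 (log2 change -0.69, SE 0.26, edgeR adjusted p 0.0297). That last call was lost without replicate 2 or 3 of PA2 E10.5 or replicate 1 of E14.5 (adjusted p 0.0513 to 0.0921). Wnt9a, a ligand of joints, stayed at 1.70 to 2.78 CPM through E12.5 and stood at 15.6, 11.5 and 16.5 CPM at E14.5 (log2 change 2.91, SE 0.21, edgeR adjusted p 4.79e-07).

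Wnt2b, Wnt6, Wnt7b and Wnt10a made up the rest of the tested ligands and stayed at low levels. Wnt2b reached 11.6 CPM at E14.5 from 3.58 CPM at E10.5 (log2 change 1.70, SE 0.25, edgeR adjusted p 6.61e-05). Wnt6, Wnt7b and Wnt10a did not exceed 3.42 CPM in any stage library, and each was called higher at E14.5 than at E10.5, with log2 changes of 2.92, 3.18 and 1.73. Wnt7b passed the filter only through E14.5, where it is high, so the direction of its call was set by the filter. It was not tested without E14.5 replicate 2 or 3. Wnt6 and Wnt10a needed the pinna libraries to pass. Several ligands that epithelium is known to make are in this low set, and the 9 epithelial markers summed to 29.2 to 49.0 CPM at E14.5, against 11.7 to 15.1 CPM at E12.5. Of the 7 tested, 4 were called higher (Cdh1, Trp63, Krt5 and Krt14, the last by 4.16) and 3 lower (Krt18, Epcam and Esrp1), while Krt8, Krt18 and Cldn6 lay under 1 CPM at E14.5. Markers of glia and melanocytes, which are themselves crest derivatives, summed to 16.8 to 18.5, 40.5 to 53.8 and 345 to 402 CPM at the 3 stages (all 6 of 6 higher at E14.5 than at E12.5), and endothelial markers to 6.79 to 8.99, 19.0 to 26.2 and 108 to 173 CPM (1 of 4 tested higher, Kdr). Their part in the results at E14.5 was not tested. At the first step the epithelial sum changed by 0.14 on the log2 scale, with 4 of 7 markers tested called higher and 1 lower. The sums of endothelium and of glia and melanocytes changed by 1.44 (1 of 4 tested called, higher) and 1.36 (4 of 6 called, all higher). The crest mesenchyme sum changed by 0.97, with 4 of 7 markers called higher, 2 lower and a median log2 change of 0.22. Their part in the rise of Wnt5a and the other ligands was not tested.

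**Figure D2:**
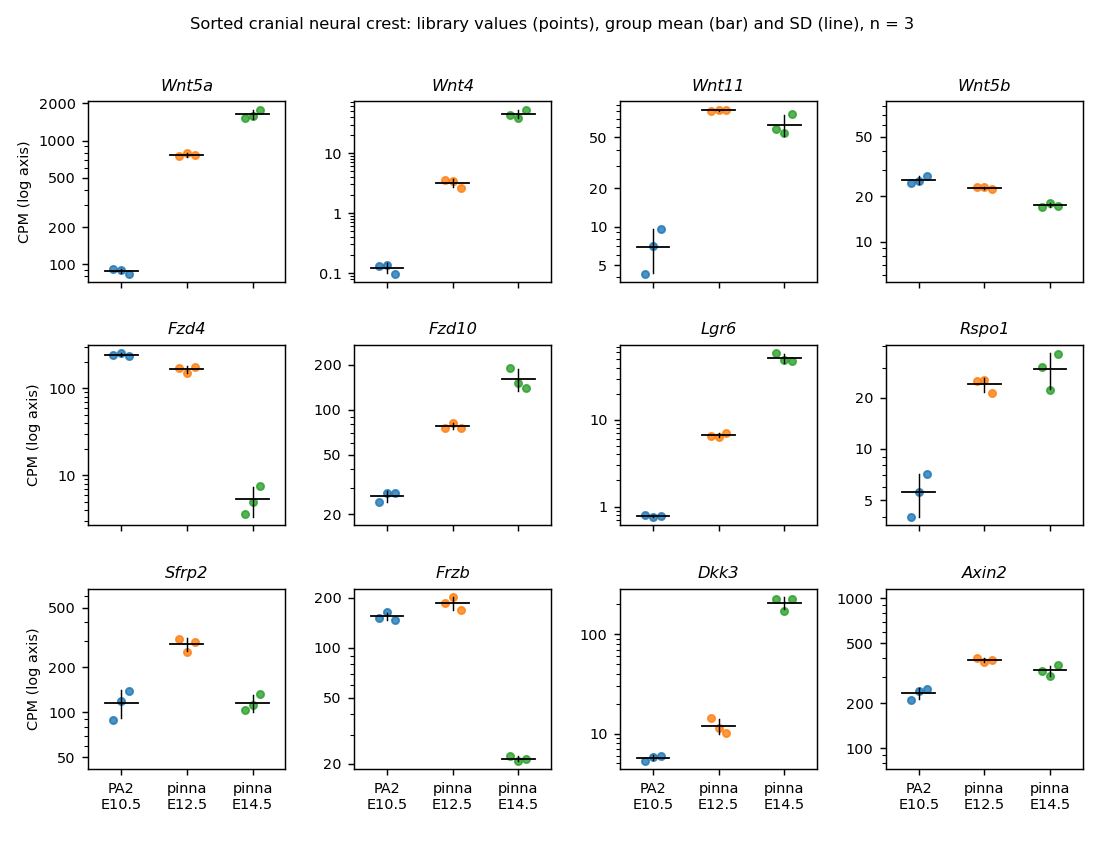
Levels in sorted crest of PA2 at E10.5 and of the pinna at E12.5 and E14.5 for 12 of the genes, in CPM on a log axis whose range differs between panels. Points are libraries, bars the mean and vertical lines the SD of 3 libraries. Wnt5a, Wnt4, Lgr6 and Fzd10 step up at both intervals, Fzd4 and Frzb drop at E14.5, and Sfrp2 peaks at E12.5.

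The receptors moved less in sum and changed in make-up. Summed over the 10 Frizzled genes, the level per length was 225 ± 8.81 RPKM at E10.5, 222 ± 5.33 RPKM at E12.5 and 188 ± 14.6 RPKM at E14.5. At E12.5, 1 of 11 tested receptors was called higher and 5 lower (background 35% and 33.7%, median log2 change -0.17), and from E12.5 to E14.5, 2 were higher and 6 lower (background 32.6% and 33.1%). Fzd2 and Fzd1 stayed among the most abundant at each stage, with 34.6% ± 1.15, 35.8% ± 0.516 and 28.6% ± 2.98 of the sum for Fzd2.

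Fzd4 (chromosome 7, 89404355 to 89413134, plus strand), the receptor of blood vessel growth in the retina, gave the deepest fall of any receptor. It measured 241, 255 and 239 CPM at E10.5, 171, 150.5 and 178 CPM at E12.5 and 3.57, 4.92 and 7.62 CPM at E14.5. The first step was -0.55 (SE 0.16, edgeR adjusted p 0.0104) and the second -4.96 (SE 0.20, edgeR adjusted p 8.48e-09). Its share of the Frizzled sum went from 16.2% ± 0.684 to 11.2% ± 1.03 and 0.421% ± 0.141. Of the 4 endothelial markers tested, only Kdr was called over the same interval, higher by 2.97. The part of endothelial cells in the fall of Fzd4 was not tested.

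Fzd10 was the only receptor called higher at both intervals. It measured 24.1, 27.9 and 28.01 CPM, then 75.8, 81.7 and 75.2 CPM, then 190.4, 150.01 and 139.9 CPM, with steps of 1.54 (SE 0.11, edgeR adjusted p 4.08e-07) and 1.05 (SE 0.11, edgeR adjusted p 7.22e-06), and its share of the Frizzled sum rose from 3.64% ± 0.168 to 26.3% ± 4.76. Fzd5 fell most by E12.5, from 15.6, 18.1 and 20.2 CPM to 3.12, 3.396 and 3.84 CPM (log2 change -2.38, SE 0.14, edgeR adjusted p 7.19e-08), and held 2.27, 2.12 and 2.15 CPM at E14.5. An unclassified transcript on the other strand shares 17.8% of the Fzd5 exon bases. Among the coreceptors, Lrp5 went from 201 ± 8.42 to 129 ± 11.97 CPM (log2 change -0.64, SE 0.076, edgeR adjusted p 1.05e-05), and Lrp6 from 364 ± 3.36 to 413 ± 20.5 CPM (log2 change 0.18, SE 0.052, edgeR adjusted p 0.0075), a small change.

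Of the genes that tune receptor levels, Lgr6 changed most. This R-spondin receptor marks stem cells of skin and its appendages in adults. It measured 0.803, 0.755 and 0.784 CPM at E10.5, 6.54, 6.37 and 7.103 CPM at E12.5 and 58.8, 49.01 and 47.3 CPM at E14.5. The steps were 3.09 (SE 0.15, edgeR adjusted p 1.73e-08) and 2.95 (SE 0.10, edgeR adjusted p 2.89e-09). Lgr5 and the ligand Rspo1 rose at the first step and not detectably at the second: Lgr5 measured 5.35 ± 1.95, 22.9 ± 2.65 and 19.7 ± 4.88 CPM, and Rspo1 5.57 ± 1.56, 23.9 ± 2.26 and 29.5 ± 6.96 CPM (SD, n = 3 each). The first steps were 2.10 (SE 0.25) and 2.10 (SE 0.21), with edgeR adjusted p-values of 1.81e-05 and 5.27e-06. Lgr4, the third R-spondin receptor, rose from 89.5 ± 2.34 to 171 ± 9.45 CPM (log2 change 0.93, SE 0.069, edgeR adjusted p 4.75e-07).

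Rspo2, a ligand needed for limb and face, was at 20.6, 20.1 and 14.4 CPM, then 22.4, 31.9 and 24.1 CPM, then 18.9, 18.8 and 18.7 CPM. The rise to E12.5 was 0.51 (SE 0.15, edgeR adjusted p 0.0105) and the fall to E14.5 -0.47 (SE 0.15, edgeR adjusted p 0.0149), and both calls were lost without replicate 2 of E12.5 (adjusted p 0.0511 and 0.0747). Rspo3 stayed between 13.3 and 19.9 CPM in the 9 libraries, and neither step was called. The brake Znrf3 was the potentiator block's largest fall at the first step, from 46.9, 49.6 and 47.7 CPM to 40.03, 37.2 and 38.03 CPM (log2 change -0.32, SE 0.063, edgeR adjusted p 0.000747).

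The antagonists split, with 5 of 10 higher and 2 lower at the first step, where 68.8% of all genes were called in either direction, and 4 higher and 4 lower at the second (background 65.7%). Frzb, an extracellular Wnt binder first found in cartilage, held 152, 164 and 148 CPM at E10.5, 186, 203 and 169 CPM at E12.5 and 22.3, 20.96 and 21.5 CPM at E14.5. Its fall at the second step was -3.11 (SE 0.079, edgeR adjusted p 4.98e-10). Sfrp1 fell beside it, from 133 ± 15.4 to 36.1 ± 3.24 CPM (log2 change -1.88, SE 0.092, edgeR adjusted p 2.68e-08). The sum of the 3 cartilage markers fell over the same time, from 1144 to 1213 CPM at E10.5 to 591 to 623 CPM at E12.5 and 230 to 278 CPM at E14.5. At the second step Sox9 and Col2a1 were called lower and Acan higher, and their part in the fall of Frzb was not tested.

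Dkk3, a divergent Dkk that does not act on Lrp6 as Dkk1 does, rose instead. Its libraries held 5.32, 5.799 and 5.95 CPM, then 14.4, 11.3 and 10.2 CPM, then 228, 173 and 224 CPM, with a second step of 4.13 (SE 0.14, edgeR adjusted p 2.71e-09). Sfrp5 was near absent at E10.5 with 2 counts in 3 libraries, was at 0.0371, 0.131 and 0.204 CPM at E12.5 and reached 14.98, 8.89 and 15.8 CPM at E14.5. The ratio of E14.5 to E10.5 was 589, with a 95% counting interval of 163 to 4870 that covers counting error only. Sfrp4 stood at 0.371, 0.4898 and 0.102 CPM at E12.5 and at 3.48, 2.33 and 2.56 CPM at E14.5 (log2 change 3.10, SE 0.50, edgeR adjusted p 0.000232).

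Dkk2 and Sfrp2 peaked at E12.5. Dkk2 measured 38.9, 46.4 and 40.0 CPM, then 191, 204 and 202 CPM, then 123, 141 and 98.6 CPM, a rise of 2.25 (SE 0.12, edgeR adjusted p 3.92e-08) and a fall of -0.72 (SE 0.11, edgeR adjusted p 0.000189). Sfrp2 went from 116 ± 24.7 to 285 ± 29.1 and back to 116 ± 14.9 CPM, and its E14.5 and E10.5 levels differed by less than the SE (0.15 on the log2 scale). Dkk1, the classical Lrp6 blocker, fell at the first step from 13.4, 7.69 and 8.07 CPM to 3.53, 4.24 and 4.49 CPM (log2 change -1.25, SE 0.26, edgeR adjusted p 0.00117). Wif1 rose in small amounts, from 3.91 to 8.95 CPM over the whole interval (log2 change 1.19, SE 0.19, edgeR adjusted p 9.72e-05). Notum was lowest at E12.5 (6.16, 6.27 and 5.98 CPM) and highest at E14.5 (15.1, 13.5 and 16.3 CPM), but antisense transcripts share up to 29.4% of its exon bases.

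Inside the cell, Axin2 and Lef1 rose at the first step and gave back part of it at the second. Lef1, a DNA-binding partner of β-catenin, measured 53.8, 63.8 and 67.9 CPM, then 157, 146 and 145 CPM, then 103, 100.1 and 86.5 CPM, with steps of 1.27 (SE 0.094, edgeR adjusted p 4.50e-07) and -0.63 (SE 0.092, edgeR adjusted p 0.000113). Axin2 measured 211, 240.2 and 248 CPM, then 401, 378 and 388 CPM, then 329.5, 305 and 357 CPM, with steps of 0.74 (SE 0.076, edgeR adjusted p 6.16e-06) and -0.24 (SE 0.076, edgeR adjusted p 0.0168), and the second call was lost without E12.5 replicate 1 or E14.5 replicate 2 (adjusted p 0.0513 and 0.0646). Axin1 stayed between 106 and 139.6 CPM and fell by 0.31 at the first step (SE 0.053). Of 11 genes that the canonical pathway is known to induce in many tissues, some of them described above, 10 were tested at the first step. Axin2, Sp5, Lef1, Nkd1, Lgr5 and Apcdd1 were higher (background 35%) and Dkk1, Notum and Znrf3 lower (background 33.7%), with a median of 0.97 against 0.0097 over all genes.

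A further 42 genes of the pathway, from secretion to polarity, were counted as a list. Apcdd1, Nkd1, Sp5 and Tcf7 stand both in this list and among the induced genes above, so the counts overlap. At the first step 21 of the 37 tested were higher and 3 lower, where 35% and 33.7% of all genes were called in these directions. At the second 10 were higher and 12 lower, shares near the background of 32.6% and 33.1%. The largest rise from E10.5 to E14.5 was that of Prickle2, a planar polarity gene, from 18.3 to 137 CPM (log2 change 2.91, SE 0.097, edgeR adjusted p 2.64e-10). The largest at the first step was that of Apcdd1, a membrane inhibitor that the pathway induces, from 139 to 703 CPM (log2 change 2.33, SE 0.079, edgeR adjusted p 1.74e-09). The deepest fall was that of Ror1, a Wnt5a receptor, from 62.5 CPM at E10.5 to 16.9 CPM at E14.5 (log2 change -1.89, SE 0.074, edgeR adjusted p 9.06e-10).

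The genotype series asks what changes when HIRE1 is lost. In PA2, 2 of the 44 Wnt genes tested were called, 1 higher and 1 lower, where 0.438% of all 14383 genes were called (0.118% higher, 0.32% lower). In PA3, 2 were called, both higher, where the background was 0.216% in either direction and 0.0556% for higher. None of these changes reached 2-fold. Rspo2 was called in both arches, Fzd4 in PA2 and Frzb in PA3.

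Rspo2 (chromosome 15, 43020794 to 43170826, minus strand) rose without HIRE1. In PA2 it measured 15.2, 15.6 and 15.1 CPM in WT and 27.9, 31.3 and 29.6 CPM in HIRE1del. Every HIRE1del library lay above every WT library, with a mean of 29.6 ± 1.704 against 15.3 ± 0.237 CPM (SD, n = 3 each) and a log2 change of 0.95 (SE 0.087, edgeR adjusted p 0.000105). In PA3 it measured 13.6, 13.2 and 12.7 CPM in WT and 16.9, 21.3 and 18.7 CPM in HIRE1del. These ranges did not overlap either, and the change was 0.53 (SE 0.088, edgeR adjusted p 0.03). The PA3 call was lost when replicate 1, 2 or 3 of PA3 WT or replicate 2 or 3 of PA3 HIRE1del was left out (adjusted p 0.0594 to 0.149), whereas the PA2 call was kept whichever library was left out. The rise was 0.42 larger in PA2 (SE 0.12), a difference that did not pass the test (edgeR adjusted p 0.825).

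Fzd4 fell in PA2 and not in PA3. In PA2 it measured 173, 158 and 168 CPM in WT and 88.3, 91.7 and 91.6 CPM in HIRE1del, so that the mean dropped from 166 ± 8.04 to 90.5 ± 1.93 CPM, with a log2 change of -0.88 (SE 0.099, edgeR adjusted p 0.000544). In PA3 its values were 131, 97.9 and 111 CPM in WT and 124, 134 and 104 CPM in HIRE1del, which overlap (log2 change 0.09, SE 0.098, edgeR adjusted p 0.81). The difference between the arches was itself tested: the interaction of genotype and arch was -0.97 (SE 0.14, edgeR adjusted p 0.0225), where 0.0487% of all genes were called. With same-numbered PA2 and PA3 libraries of a genotype paired as a block, a pairing that is assumed and not stated by the labels, the interaction was -0.97 with an edgeR adjusted p of 0.00185. Without the block the call was lost when any of 8 of the 12 libraries was left out, namely replicates 1, 2 and 3 of PA2 WT, 1 and 2 of PA2 HIRE1del, 3 of PA3 WT and 1 and 2 of PA3 HIRE1del (adjusted p 0.0644 to 0.0968). Per length, Fzd4 made up 17.2% ± 1.21 of the Frizzled sum in PA2 WT and 10.1% ± 0.696 in PA2 HIRE1del, against 12.3% ± 1.63 and 13.5% ± 1.45 in PA3.

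Frzb (chromosome 2, 80411970 to 80447625, minus strand) rose in PA3. There the values were 58.5, 56.4 and 56.2 CPM in WT and 78.4, 80.8 and 83.2 CPM in HIRE1del, with a log2 change of 0.50 (SE 0.077, edgeR adjusted p 0.0192). The ranges lay apart, yet the call was lost when any 1 of the 6 PA3 libraries was left out (adjusted p 0.0545 to 0.111). In PA2 the values were 90.9, 106 and 105 CPM in WT and 95.9, 96.2 and 116 CPM in HIRE1del, which overlap (log2 change 0.03, SE 0.076, edgeR adjusted p 0.958). The arches differed in this effect by -0.48 (SE 0.11, edgeR adjusted p 0.424), where the pairing block gave an edgeR adjusted p of 0.088 and DESeq2 one of 0.0434.

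**Figure D3:**
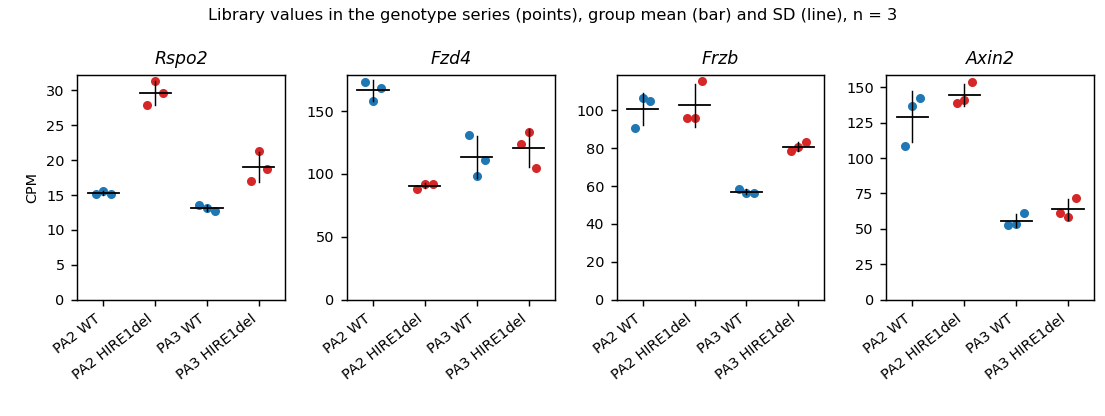
Levels in CPM of Rspo2, Fzd4, Frzb and Axin2 in the 12 libraries of the dissected arches. Points are libraries (WT blue, HIRE1del red), bars the mean and vertical lines the SD of 3 libraries. Rspo2 is higher in HIRE1del in both arches, Fzd4 is lower in PA2, Frzb is higher in PA3, and Axin2 differs between arches more than between genotypes.

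No ligand was called in either arch by edgeR, and 1 of 14 in PA2 and 2 of 14 in PA3 had an unadjusted p under 0.05. DESeq2 called 1 ligand in PA3 and limma-voom none. The one that DESeq2 called was Wnt16, a ligand known from bone, which measured 0.497, 0.2501 and 0.386 CPM in PA3 WT and 1.27, 1.01 and 0.7995 CPM in PA3 HIRE1del. All HIRE1del values lay above all WT values, at low counts, and the change was 1.44 (SE 0.30, edgeR adjusted p 0.106) by edgeR and 1.45 (adjusted p 0.0328) by DESeq2. In PA2 Wnt16 held 2.63, 2.49 and 3.08 CPM in WT and 2.67, 2.07 and 2.11 CPM in HIRE1del. The abundant ligand Wnt5a held 77.8, 70.95 and 76.04 CPM in PA2 WT and 69.1, 71.4 and 74.2 CPM in PA2 HIRE1del, a difference of -0.07 (SE 0.081).

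Axin2 measured 109, 137 and 142 CPM in PA2 WT and 139, 141 and 154 CPM in PA2 HIRE1del (log2 change 0.16, SE 0.10, edgeR adjusted p 0.724), and the overlapping values did not differ detectably. Among the 10 tested genes that the pathway induces none was called in either arch or in the interaction by edgeR, DESeq2 or limma-voom, with 3, 2 and 3 at an unadjusted edgeR p under 0.05 in PA2, PA3 and the interaction. Of the 41 tested genes in the list of further pathway genes none was called by edgeR, with 7 in PA2, 11 in PA3 and 5 in the interaction at an unadjusted p under 0.05. DESeq2 called 1 of them in PA3, Nkd2, and limma-voom none. Among the markers of other tissues, the epithelial sum was 292 to 327 CPM in PA2 WT and 271 to 297 CPM in PA2 HIRE1del, the crest mesenchyme sum 1025 to 1141 and 1021 to 1161 CPM, and no marker of the 8 lists was called by edgeR. In PA2 the sums of 3 lists lay apart between WT and HIRE1del: neurons at 66.8 to 74.6 against 52.4 to 53.97 CPM, muscle at 25.5 to 26.8 against 21.8 to 23.8 CPM and cartilage at 784 to 899 against 967 to 1051 CPM. DESeq2 called 4 markers in PA2 (Dlx2, Dlx5 and Col2a1 higher, Isl1 lower) and Twist1 in PA3. Their part in the changes of Rspo2, Fzd4 and Frzb was not tested.

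**Figure D4:**
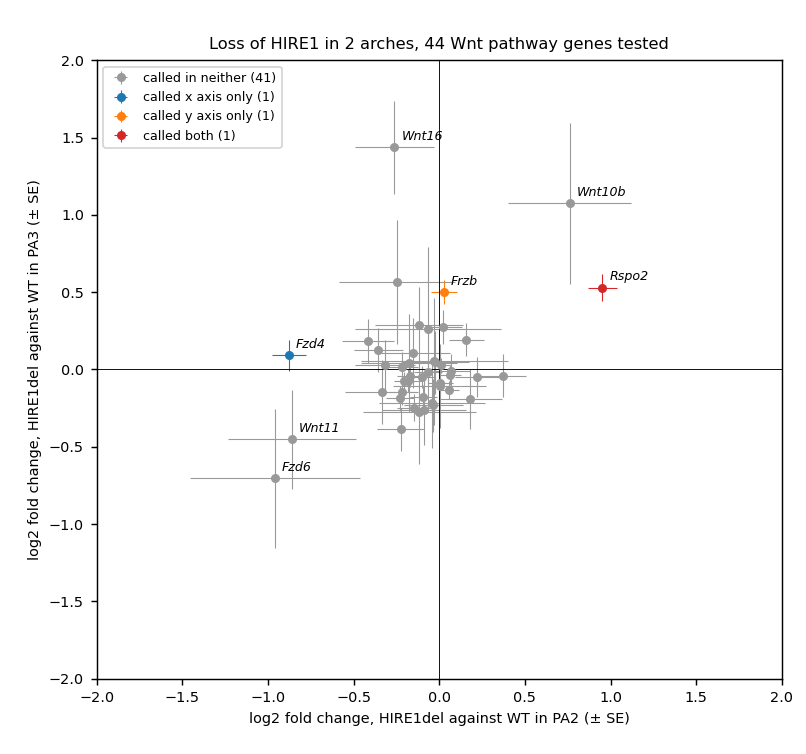
Log2 fold change of HIRE1del against WT in PA2 (x axis) and in PA3 (y axis) for the 44 genes tested, with SE as bars. Colours give the call. Rspo2 is called in both arches, Fzd4 in PA2 (x axis only) and Frzb in PA3 (y axis only), and 41 genes are called in neither.

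The arches of WT embryos differed far more from one another than the genotypes did. Between PA3 and PA2, 23 of 44 Wnt genes were called, 9 higher and 14 lower in PA3, where 36.5% of all genes were called (19.1% higher, 17.4% lower). At 2-fold or more 9 were called, 3 higher and 6 lower, against a background of 8.33% (7.39% higher, 0.939% lower). The 6 lower were Axin2, Rspo1, Wnt10a, Wnt10b, Wnt16 and Wif1. Of these, Wnt10a, Wnt10b, Wnt16 and Wif1 lay under 1 CPM in each PA3 WT library. They passed the filter only through other groups, so their direction was largely set by the filter. With 1 CPM required in every library, Axin2 alone of the 6 was tested, and Wnt11 among the higher was not. PA3 also held more of other tissues: its epithelial markers summed to 610 to 778 CPM against 292 to 327 CPM in PA2 (6 of 9 called higher, 1 lower), its blood markers to 12112 to 23752 against 1491 to 2352 CPM (5 of 5 higher), and its neuronal markers to 141 to 190 against 66.8 to 74.6 CPM (5 of 5 higher), while crest mesenchyme markers summed to 665 to 834 against 1025 to 1141 CPM, a log2 difference of -0.52. Their part in the arch differences was not tested.

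Several genes that the pathway induces were lower in PA3. Axin2 (chromosome 11, 108920349 to 108950783, plus strand) measured 52.9, 53.2 and 61.4 CPM in PA3 WT against 109, 137 and 142 CPM in PA2 WT, with ranges apart and a log2 difference of -1.21 (SE 0.10, edgeR adjusted p 2.62e-06). In HIRE1del embryos, whose libraries are separate, PA3 held 61.2, 58.1 and 72.1 and PA2 139, 141 and 154 CPM (log2 change -1.18, SE 0.10, edgeR adjusted p 3.47e-06). The crest mesenchyme sum differed by -0.52 in WT and by -0.50 in HIRE1del on the same scale. Lef1 was lower in PA3 by a smaller amount, with 29.04, 24.9 and 28.99 CPM against 38.6, 46.8 and 50.5 CPM in PA2 WT (log2 change -0.71, SE 0.095, edgeR adjusted p 8.49e-05). Among the 10 response genes tested, 5 were lower in PA3 WT (Axin2, Lef1, Apcdd1, Sp5 and Nkd1, background 17.4%) and 1, Dkk1, was higher (background 19.1%). In HIRE1del 5 were lower (background 14.7%) and 3 higher (background 18.7%).

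Ligands differed in both directions. Wnt16 measured 0.497, 0.2501 and 0.386 CPM in PA3 WT against 2.63, 2.49 and 3.08 CPM in PA2 WT (log2 change -2.85, SE 0.28, edgeR adjusted p 7.39e-06), and Wnt10b 0.191, 0.286 and 0.418 against 1.2004, 2.49 and 2.401 CPM (log2 change -2.73, SE 0.46, edgeR adjusted p 0.000569). Wnt7b was lower, with 7.92, 7.79 and 8.49 against 11.8, 14.6 and 12.47 CPM (log2 change -0.68, SE 0.19, edgeR adjusted p 0.0127), and Wnt10a was lower at low levels, with 0.306, 0.286 and 0.354 against 0.658, 1.298 and 0.646 CPM (log2 change -1.44, SE 0.48, edgeR adjusted p 0.0309). The Wnt7b call was lost without PA2 WT replicate 2 (adjusted p 0.0505), and the Wnt10a call without replicate 1, 2 or 3 of PA3 WT (adjusted p 0.0644 to 0.0863). Wnt11 was higher in PA3, with 4.48, 5.22 and 3.93 against 1.05, 2.17 and 2.28 CPM (log2 change 1.29, SE 0.33, edgeR adjusted p 0.00859). Wnt9b, an epithelial ligand of the face, was slightly higher, with 31.9, 23.7 and 26.6 against 21.6, 21.95 and 21.8 CPM (log2 change 0.33, SE 0.11, edgeR adjusted p 0.0294), and lost its call without PA3 WT replicate 1 or any 1 PA2 WT library (adjusted p 0.061 to 0.14). The other 8 tested ligands, Wnt5a and Wnt4 among them, were not called.

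Receptors and antagonists likewise split. Fzd5, the receptor that fell in crest after E10.5, measured 26.4, 34.98 and 26.4 CPM in PA3 WT against 8.79, 11.3 and 11.5 CPM in PA2 WT (log2 change 1.47, SE 0.17, edgeR adjusted p 2.67e-05). Lower in PA3 were Fzd4 (log2 change -0.56, SE 0.098, edgeR adjusted p 0.000765), Fzd10 (12.7, 14.7 and 14.9 against 17.8, 24.1 and 22.6 CPM, log2 change -0.61) and, by smaller amounts, Fzd3, with 204, 162 and 181 against 227, 229 and 234 CPM (log2 change -0.33, SE 0.072, edgeR adjusted p 0.00285), and Lrp6, with 246, 246 and 261 against 274, 287 and 327 CPM (log2 change -0.24, SE 0.073, edgeR adjusted p 0.0212). Fzd9 was higher, with 2.79, 2.43 and 3.54 against 1.94, 2.07 and 1.17 CPM (log2 change 0.77, SE 0.23, edgeR adjusted p 0.0204), and so was Fzd8, with 31.4, 30.3 and 29.99 against 25.8, 25.9 and 21.9 CPM (log2 change 0.32, SE 0.079, edgeR adjusted p 0.00724). PA3 and PA2 libraries did not overlap in any of these receptors. The calls of Lrp6 (without PA2 WT replicate 3 or PA3 WT replicate 1 or 2) and of Fzd9 (without replicate 3 of either arch) were lost, with adjusted p-values of 0.0642 to 0.109. Among potentiators Lgr4 was higher, with 122, 141 and 123 against 91.7, 96.97 and 98.3 CPM (log2 change 0.43, SE 0.072, edgeR adjusted p 0.000522), and Rspo1 lower, with 0.842, 2.07 and 1.19 against 2.75, 4.03 and 4.13 CPM (log2 change -1.41, SE 0.30, edgeR adjusted p 0.00267).

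Of the antagonists, Dkk1, Dkk3 and Sfrp1 were higher in PA3, and Frzb, Dkk2 and Wif1 lower. Dkk3 measured 16.5, 16.6 and 17.3 CPM against 7.82, 7.37 and 7.51 CPM in PA2 WT (log2 change 1.15, SE 0.092, edgeR adjusted p 1.48e-06), and Dkk1 18.4, 17.6 and 20.9 against 12.9, 10.7 and 9.85 CPM (log2 change 0.77, SE 0.15, edgeR adjusted p 0.00133). Sfrp1 measured 123, 144 and 138 against 83.1, 84.2 and 81.6 CPM (log2 change 0.70, SE 0.086, edgeR adjusted p 4.40e-05). In the other direction, Frzb measured 58.5, 56.4 and 56.2 against 90.9, 106 and 105 CPM (log2 change -0.82, SE 0.077, edgeR adjusted p 5.05e-06), Dkk2 15.04, 11.8 and 14.48 against 18.6, 26.3 and 31.1 CPM (log2 change -0.88, SE 0.22, edgeR adjusted p 0.00752) and Wif1 0.421, 0.464 and 0.547 against 0.929, 1.61 and 1.63 CPM (log2 change -1.54, SE 0.38, edgeR adjusted p 0.00628).

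Of the 41 tested genes in the list of further pathway genes, 14 were higher and 9 lower in PA3 WT (background 19.1% and 17.4%), with a median of -0.026. Draxin and Sost, both secreted inhibitors, were higher by 2.52 and 1.81, at 11.7 and 2.797 CPM in PA3. Apcdd1, Kremen2, Nkd2 and Sp5 were lower by more than 1 (-1.56, -1.47, -1.37 and -1.17), all of them inhibitors of the pathway except Sp5, a transcription factor it induces. Higher by less than 1 were, among others, the polarity genes Vangl1 (0.99) and Celsr1 (0.70), the glypican Gpc4 (0.72) and Tcf7l2 (0.67), a partner of β-catenin.

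The same arch comparison in HIRE1del embryos used 6 other libraries. There 23 Wnt genes were called, 10 higher and 13 lower in PA3, where the background was 33.4% (18.7% higher, 14.7% lower). At 2-fold or more 9 were called, 4 higher and 5 lower, against 8.19% of all genes (7.26% higher, 0.932% lower). With 1 CPM required in every library, Wnt10b, Wnt16 and Rspo1 among the lower and Wnt11 among the higher were left untested. Of the 23 called in WT, 18 (78.3%) were also called in HIRE1del, which is 78.3% of the 23 there as well, and 17 of the 18 had the same direction. The exception was Fzd4, lower in PA3 than in PA2 in WT (-0.56) and higher in HIRE1del (log2 change 0.41, SE 0.099, edgeR adjusted p 0.00613). Rspo2 was lower in PA3 in HIRE1del, -0.64 (SE 0.086, edgeR adjusted p 9.88e-05), and in WT by -0.22 (SE 0.088, edgeR adjusted p 0.0704), a p that became 0.0403 with the pairing block. Called in HIRE1del and not in WT were also Fzd2, with 127, 123 and 121 CPM in PA3 against 161, 148 and 159.6 CPM in PA2 (log2 change -0.33, SE 0.058, edgeR adjusted p 0.000762), and Fzd7, with 131, 135 and 131 against 119, 101 and 108 CPM (log2 change 0.27, SE 0.06, edgeR adjusted p 0.00351). Notum measured 12.98, 10.46 and 11.96 against 9.02, 8.57 and 7.06 CPM (log2 change 0.52, SE 0.14, edgeR adjusted p 0.0137) and Znrf3 35.6, 35.7 and 38.4 against 40.1, 42.8 and 46.5 CPM (log2 change -0.24, SE 0.072, edgeR adjusted p 0.0215). The Notum call was lost without PA2 HIRE1del replicate 3 or PA3 HIRE1del replicate 1 (adjusted p 0.0568 and 0.0619), and the Znrf3 call without replicate 2 or 3 of PA2 HIRE1del or 1 or 2 of PA3 HIRE1del (adjusted p 0.0519 to 0.0956). For these genes and Rspo2 it was not shown that the difference between the arches depends on genotype. Fzd4 was the one gene of the 44 whose interaction was called.

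Of the 17 genes with the same direction in both genotypes, Fzd5 had the largest rise in each. In HIRE1del, Wnt10b measured 0.823, 0.2797 and 0.834 CPM in PA3 against 2.97, 2.57 and 4.84 CPM in PA2 (log2 change -2.42, SE 0.41, edgeR adjusted p 0.000613) and Wnt16 1.27, 1.01 and 0.7995 against 2.67, 2.07 and 2.11 CPM (log2 change -1.15, SE 0.25, edgeR adjusted p 0.00329). Fzd5 measured 34.9, 26.5 and 28.2 against 7.82, 6.94 and 10.6 CPM (log2 change 1.82, SE 0.17, edgeR adjusted p 5.63e-06) and Dkk1 26.3, 17.4 and 20.996 against 9.21, 8.11 and 7.76 CPM (log2 change 1.37, SE 0.15, edgeR adjusted p 1.88e-05). PA3 and PA2 did not overlap in any of the 4. The remaining log2 differences in HIRE1del were -1.05 for Wnt7b, 1.70 for Wnt11, -0.36 for Fzd10, -0.20 for Fzd3, 0.23 for Fzd8, 0.48 for Lgr4 and -1.19 for Rspo1. Among antagonists they were 1.06 for Dkk3, 0.78 for Sfrp1, -0.34 for Frzb and -0.62 for Dkk2, and Lef1 stood at -0.48. The HIRE1del calls of Dkk2 and Fzd3 held without PA2 HIRE1del replicate 1 and were lost without any 1 of the other 5 libraries (adjusted p 0.0568 to 0.253). That of Fzd8 held without PA3 HIRE1del replicate 3 and was lost without any 1 of the others (0.052 to 0.167), and that of Fzd10 was lost without PA2 HIRE1del replicate 3 or PA3 HIRE1del replicate 2 or 3 (0.059 to 0.081). Of the 41 further pathway genes tested, 8 were higher and 12 lower in PA3 HIRE1del (background 18.7% and 14.7%), with Draxin (2.65) and Sost (2.04) again the largest rises and Kremen2 (-1.47) the largest fall. Of the 10 tested genes that the pathway induces, 3 were higher and 5 lower (background 18.7% and 14.7%). In these libraries too the epithelial markers summed to more in PA3 (493 to 674.5 CPM, against 271 to 297 CPM in PA2), and so did the blood markers (14124 to 24019 against 1550.4 to 3261 CPM). Their part in these differences was not tested. With the pairing block, Sfrp2 in WT (-0.16, adjusted p 0.0324) and Lgr5, Rspo3, Wnt10a and Lrp6 in HIRE1del (0.58, 0.49, -1.09 and -0.13, adjusted p 0.00903 to 0.0462) were called as well.

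**Figure D5:**
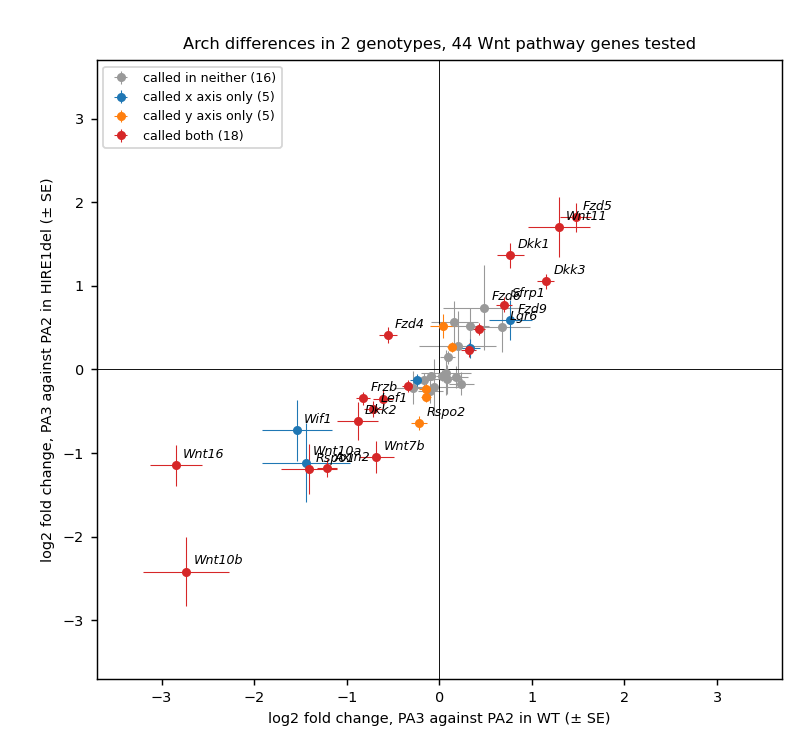
Log2 fold change of PA3 against PA2 in WT (x axis) and in HIRE1del (y axis) for the 44 genes tested, with SE as bars and colours for the calls. Most called genes lie near the diagonal, from Wnt10b at the lower left to Fzd5 at the upper right, and Fzd4 is the called gene in the upper left quadrant.

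Sorted PA2 crest and dissected PA2 of WT embryos at E10.5 can be set side by side but were sequenced in different ways and were not tested against each other. Wnt6, Wnt7b, Wnt9b and Wnt3 had 19.3 ± 1.42, 12.9 ± 1.45, 21.8 ± 0.194 and 5.99 ± 0.416 CPM in the dissected arch and 0.335, 0.146, 0.423 and 0.0681 CPM in the sorted crest (SD, n = 3 each). Wnt5a had 74.9 ± 3.57 and 88.4 ± 3.62 CPM. Per length, Wnt5a was 23.1% ± 2.05 of the ligand sum in the dissected PA2, just ahead of Wnt6 at 21.3% ± 1.83, with overlapping spreads, and Wnt5b and Wnt9b followed at 17.6% ± 1.98 and 11.6% ± 0.462. In the sorted crest Wnt5a (43.9% ± 4.32) and Wnt5b (37.6% ± 1.11) made up most of it. Of the Frizzled genes, Fzd2 had the highest share in both (28.4% ± 0.646 and 34.6% ± 1.15).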

How the data were processed

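Gene counts were used as deposited: the authors mapped the reads to the mouse genome (GRCm38/mm10) with QuasR and counted reads per gene over UCSC knownGene exons, so each value is a raw count, not normalized. The submitters' processing notes also name bcl2fastq 2.17 and 2.20. Reads were single-end in the stage series (9 libraries) and paired-end in the genotype series (12 libraries), so each table was fitted on its own. Columns assigned to groups followed the sample titles. The kit is described as unstranded while counting used one read orientation, and this was not settled.

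A gene was kept if it reached 1 CPM in 2 libraries or more. Libraries were scaled by TMM and tested with edgeR 4.0.16 (quasi-likelihood, R 4.3.3), all groups of a table sharing 1 estimate of the spread. Benjamini-Hochberg adjustment ran over all genes kept, and an adjusted p below 0.05 was a call. SE was derived from the log2 fold change and the F statistic. Other settings were RLE size factors, no filter or a stricter filter, DESeq2 1.42.0, limma-voom (limma 3.58.1), a replicate block, only the libraries compared, and each library left out. The steps were tested on simulated data. Replicates differed by more than counting noise (chi-square per degree of freedom 7.00 to 46.5), so each counted as 1 sample. The paper describes 3 independent biological replicates per sample and the pooling of cells from embryos of different sexes. No source says that they are separate litters, so p-values measure the spread between these samples.

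Same-numbered PA2 and PA3 libraries of a genotype deviated together (r 0.226 to 0.394 in WT and 0.239 to 0.354 in HIRE1del, every pair above 0.1) and were taken as pairs on that ground, since no label used here states a shared pool of embryos. Libraries with different numbers were not compared, so the pairing is an assumption. Across stages (r -0.324 to 0.221) and between genotypes a number was taken as only a number. Yet r between genotypes ran from -0.144 to 0.257 within PA2 and from -0.219 to 0.301 between PA2 WT and PA3 HIRE1del. The highest of these values lie within the range of the pairs. The pairing block entered the arch and interaction comparisons as an alternative, and the number as an additive term the others.

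Membership follows from the gene symbol alone, but this group of genes, the gene lists and the tests were chosen with earlier results of these data known. Named with all libraries were the members called in a genotype, arch or interaction comparison (some arch calls in HIRE1del that WT shared are given by fold change only) and, for each role and stage step, the called genes that rose and fell most with an average of at least 1 CPM. Wnt5a, Wnt5b, Wnt9a, Wnt11, Wnt2b, Wnt6, Wnt7b, Wnt10a, Lrp5, Lgr4, Lgr5, Rspo1, Rspo3, Sfrp1, Sfrp2, Sfrp4, Dkk3, Wif1, Notum, Axin2 and the named genes of the further lists were added after their values were seen. Promoters came from RefSeq (GRCm38.p6) and positions from GENCODE M21, in which 52 of the 54 members had an exonic length equal to the width in the count tables.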

Additional observations from a re-analysis of the deposited data

Results flagged for a closer look

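The effect of HIRE1 loss on Fzd4 differed between the arches by the test of the difference itself. The interaction of genotype and arch had a log2 value of -0.97 with SE 0.14 (edgeR adjusted p 0.0225), from a change of -0.88 in PA2 and 0.09 in PA3. This call was lost when any of 8 of the 12 libraries was left out (edgeR adjusted p 0.0644 to 0.0968). Within PA2, all 3 HIRE1del libraries lay below all 3 WT libraries.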

How the results depend on the processing

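The 147 calls on single genes were recomputed in 1876 values under the other settings. Of these values, 1779 kept direction and call, 97 kept direction and lost the call, and none reversed. In every setting in which their gene was tested, 124 calls held. A gene that a filter left untested gave no value there. This applied to Wnt4, Lgr6, Sfrp5 and others when 1 CPM was required in every library, and to Wnt7b without E14.5 replicate 2 or 3. Outside the fits that left out 1 library, the counts of called genes moved by over 1.5 times in few settings. With 1 library left out, the count for HIRE1 loss in PA3 fell each time and the interaction count moved in most fits. The other counts did not move by that much there. Requiring 1 CPM in every library left 11, 10 and 15 stage changes of 2-fold or more (E12.5 against E10.5, E14.5 against E12.5, E14.5 against E10.5) in place of 18, 16 and 24, since fewer genes were tested. DESeq2 called 2 interactions in place of 1 (Fzd4 and Frzb), and a fit of PA3 libraries alone called 1 gene in PA3 in place of 2; the cause was not tested. Leaving out 1 library gave 17 to 21, 16 to 18 and 21 to 24 of these 2-fold changes, 28 to 32, 25 to 28 and 36 to 37 calls of any size, 2 calls each time for HIRE1 loss in PA2, 0 to 1 in PA3, 0 to 2 interactions, 20 to 23 arch calls in WT and 18 to 22 in HIRE1del.

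The replicate number as a block left Rspo2 and Fzd4 called in PA2 and Rspo2 and Frzb in PA3, and the assumed pairing of PA2 with PA3 gave an interaction of -0.97 for Fzd4 (edgeR adjusted p 0.00185). It lost no arch call and added those named above. In the stage series, where a number does not pair samples, the block added Sfrp5 at E12.5 (2.34, adjusted p 0.0451) and Wnt11 at E14.5 (-0.40, adjusted p 0.0479) and lost Wnt2b, Fzd8 and Wnt6, each in 1 step. At the depth of these libraries a floor of 3 counts lies at 0.0631 to 0.117 CPM, which limits Wnt4 and Sfrp5 at E10.5 and leaves Wnt1, Wnt8b and Dkk4 undetectable in sorted crest.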
